A study of Mus musculus with 4 samples.

Results

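Gja5-negative arterial endothelial cells of the mouse aorta-gonad-mesonephros region (AGM), the embryonic tissue around the dorsal aorta, were described in 4 single-cell RNA libraries. A cell belonged to them when it had at least 1000 detected genes and under 10% mitochondrial UMIs, at least 1 UMI each of Cdh5, Gja4, Cxcr4 and Unc5b, and no UMI of Gja5, Runx1 or Foxq1. UMIs are barcodes that let each captured RNA molecule be counted once. The rule selected 537 of the 20836 cells that passed the filters, or 65, 236, 75 and 161 cells in WT1, WT2, KO1 and KO2, the 4 libraries described next. These measured values chose the cells, so the levels of the 7 genes of the rule are given as a description only. Genes that vary with those 7 can differ between the cells and any comparison group because of the selection itself.

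The libraries were made with the 10x Genomics 3' kit, version 3, from endothelial cells sorted as CD31+ and negative for the marker written C45- in the labels, at embryonic day 10.5. The wild-type (WT) group had 2 libraries, and the group of miR-223-/- embryos (KO) of matched age also had 2. They are called WT1, WT2, KO1 and KO2, and where 4 values follow each other they are in that order. Each library counted as 1 replicate. How many embryos a library held, and whether libraries of a group came from separate litters, is not in the labels, so a p-value speaks only of the spread between libraries, part of which may be technical. The sources used here do not state the strain, the sex or the extent of the deletion. Because the whole KO embryo carried the deletion by its label, an effect within endothelium and an effect from another tissue cannot be told apart.

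Embryonic arteries are assembled from a capillary plexus in which some cells take on arterial genes before they join a larger vessel. VEGF and Notch signals, through the ligand Dll4 and the repressors Hey1 and Hey2, and SoxF transcription factors set this identity, while Nr2f2 and Ephb4 mark veins. Gja4 and Gja5 encode the gap junction proteins connexin 37 and connexin 40, and Gja5 is a usual marker of arteries that are already formed. Cxcr4 is the receptor of the chemokine CXCL12, Unc5b is a netrin receptor, and Cdh5 is the endothelial cadherin. Runx1 marks hemogenic endothelium, from which the first blood stem cells arise.

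The microRNA that the KO embryos lack is shown because its seed, in capitals, defines the target sites that were searched. RefSeq places it on the plus strand at chrX:96242884-96242905 of GRCm38.p6, and the seed is bases 2 to 8 from the 5′ end.
mmu-miR-223-3p: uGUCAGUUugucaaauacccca
A 3' kit reads polyadenylated RNA and not the mature microRNA, so the deletion was looked at through F630028O10Rik, the long noncoding transcript that overlaps Mir223 in RefSeq. It had 0, 0, 3 and 2 UMIs in the Gja5-negative cells, too few to compare. In the other Cdh5-positive cells it had 5, 29, 158 and 200 UMIs, or 0.0746, 0.212, 2.12 and 1.69 CPM, which are counts scaled to the same total in every library. The KO libraries were thus both above both WT libraries, an order that was not tested and does not measure the microRNA or its loss.

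The libraries held 31521 barcodes, of which 93 occurred in more than 1 library. Filter-passing cells carried between 83353433 and 163401283 UMIs per library. WT1 was the deepest per cell, with a median of 30713 UMIs against 18961 to 20650 in the other libraries. Within the Gja5-negative cells the summed depth was 2047604, 4608628, 1786650 and 3565902 UMIs, and this sets the precision of every level below. Their median depth per cell was 26836, 17156.5, 21252 and 17932 UMIs. Xist, the RNA of the inactive X chromosome of females, stood at 351, 245, 0 and 231 CPM in the Gja5-negative cells, so KO1 differed from the other libraries in it, and the part of this in the results was not tested.

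The label of these cells, pre-arterial plexus endothelium, names Gja4, Cxcr4, Unc5b, Igfbp3 and Hey1 as markers, of which the first 3 were used by the rule. Igfbp3, an insulin-like growth factor binding protein, and Hey1 were also detected in most of them. After each cell was thinned to 10000 UMIs, which left out 6, 31, 4 and 24 shallower cells, Igfbp3 was seen in 100%, 92.2%, 93.0% and 89.1% of them, against 98.5% in WT1 without thinning. In the other Cdh5-positive cells the thinned share was 43.6%, 44.2%, 33.3% and 41.6%. Hey1 was seen in 67.8%, 70.2%, 71.8% and 75.2% of the Gja5-negative cells and in 17.2% to 20.8% of the other Cdh5-positive cells. No cell type that lacks these genes was set apart, so the share that free RNA gives was not measured.

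The cells carried the general endothelial genes, and lists of blood lineages were at different levels. Pecam1, which encodes the CD31 used in the sort, stood at 435, 400, 327 and 332 CPM. Kdr, the main VEGF receptor, stood at 506, 569, 488 and 527 CPM. Ptprc, which encodes CD45, had no UMI, which allows up to 0.25 CPM at 3 UMIs over the 4 libraries. A list of 10 macrophage genes summed to between 0 and 1.30 CPM, with Csf1r, Ptprc, C1qa, C1qc, Cx3cr1 and Adgre1 at 0. The erythroid list of 10 genes summed to 158, 43.4, 158 and 44.0 CPM and the megakaryocyte list of 6 genes to between 1.68 and 13.7 CPM. A list of 12 mesenchymal genes summed to 30.3, 17.8, 66.0 and 82.7 CPM and a list of 6 germ cell genes to 4.40, 4.56, 24.6 and 84.7 CPM, which touches the genotype comparison below. Simulated doublets marked 1.54%, 12.7%, 9.33% and 13.7% of the Gja5-negative cells.

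Several limits of the rule were set by single UMIs. Of the Gja5-negative cells, 34, 146, 52 and 104 had exactly 1 Cxcr4 UMI, while 185, 548, 233 and 459 cells met every other condition and had none. Exactly 1 Unc5b UMI was found in 12, 59, 14 and 33 of them, and 10, 30, 13 and 29 cells failed on Unc5b alone. On the Gja5 side, 15, 61, 14 and 44 cells had exactly 1 Gja5 UMI and met all other conditions. The Cxcr4 edge therefore separated more cells than it kept.

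The Gja5-negative cells were first compared with Gja5-positive arterial cells, which had UMIs of Cdh5, Gja4 and Gja5 and none of Runx1 or Foxq1, 1939 cells in all. For the genes of the rule the levels were as follows. Gja4 stood at 270, 318, 321 and 333 CPM in the Gja5-negative cells and at 707, 626, 700 and 663 CPM in the Gja5-positive cells. Cxcr4 stood at 69.4, 86.6, 62.1 and 74.9 CPM against 45.7, 52.9, 31.5 and 40.9 CPM, where a Cxcr4 UMI was not required. Gja4 was thus lower in every library beside a condition on it that both groups met. Cxcr4 was higher in every library, and the rule required it.

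Genes of formed arteries were nearly absent from the Gja5-negative cells. Of 10749 genes tested outside the rule, 1666 (15.5%) were higher and 1611 (15%) lower with an adjusted p under 0.05 in edgeR's quasi-likelihood test with the library as a block and Benjamini-Hochberg adjustment, which is 30.5% of all genes, with a median log2 change of 0.01. All 13 tested members of the list of mature artery and wall genes, of 15 in the list, were lower, with a median log2 change of -4.65. Cytl1 had no UMI in the Gja5-negative cells, and with that gene at its bound of 3 UMIs over the group the median was -4.09. The summed level of the list was 32.2 to 45.7 CPM in the Gja5-negative cells and 499 to 603 CPM in the Gja5-positive cells, ranges that did not overlap. Gja5 set these groups apart and is in the list, though it was not tested. Lower levels of genes that vary with it can therefore follow from the selection itself, and its part was not tested.

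Htra1, a secreted protease, stood at 0.488, 0.868, 0.560 and 1.40 CPM in the Gja5-negative cells and at 68.2, 63.0, 57.3 and 56.3 CPM in the Gja5-positive cells. The log2 change was -5.99 ± 0.19 (SE, n = 4 libraries, edgeR adjusted p 5.36e-24). Tmem100, an arterial membrane protein induced by BMP signals, stood at 0.488, 7.16, 5.60 and 6.17 CPM against 111, 145, 185 and 132 CPM, a log2 change of -4.65 ± 0.15 (SE, edgeR adjusted p 3.36e-12). Every library showed both genes at a fraction of its Gja5-positive level. Bmx, an arterial kinase, had 0, 2, 0 and 4 UMIs in the Gja5-negative cells and 112, 498, 214 and 336 in the Gja5-positive cells. Elastin, the fibre protein of the arterial wall encoded by Eln, had a single UMI in the Gja5-negative cells, in KO2. Other genes with the largest falls were the phosphodiesterase gene Pde3a with a log2 change of -6.27, Pi16 with -5.85, the keratin gene Krt18 with -4.40, the homeobox gene Nkx2-3 with -4.05 and the caveolar gene Cavin2 with -4.04.

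Arterial identity genes were lower as a group but by smaller steps that differed between genes. Of 15 tested members of the 16 in the list, 12 were lower and 1, Igfbp3, was higher, with a median log2 change of -0.87. Hey2 stood at 2.44, 3.91, 0.560 and 3.37 CPM in the Gja5-negative cells and at 28.5, 36.1, 37.7 and 33.6 CPM in the Gja5-positive cells, a log2 change of -3.49 ± 0.19 (SE, edgeR adjusted p 9.89e-17). Its relative Hey1 stood at 150, 144, 136 and 141 CPM against 163, 174, 176 and 183 CPM, a log2 change of -0.25 ± 0.06 (SE, edgeR adjusted p 0.0005). The 2 Hey genes were therefore both lower, one by a wide margin and one by a narrow margin in all 4 libraries. The Hey1 gap was wider among cells that all had Cxcr4 and Unc5b UMIs. There it averaged 143 CPM with no Gja5 UMI and 235, 194 and 198 CPM with 1, 2 to 3 and 4 or more.

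Among the other arterial identity genes the Notch ligand gene Jag1 fell from 55.3 ± 6.77 CPM in Gja5-positive cells to 12.2 ± 4.14 CPM in Gja5-negative cells (mean ± SD, n = 4), a log2 change of -2.11. Sox17, a SoxF factor, fell from 240 ± 11.9 to 112 ± 8.24 CPM, a log2 change of -1.08. Vegfc, a growth factor of the VEGF family, stood at 164, 185, 195 and 180 CPM in Gja5-positive cells and at 62.5, 73.8, 70.5 and 60.0 CPM in Gja5-negative cells, a log2 change of -1.40. Jag2, Mecom, Sema3g, Efnb2 and Nrp1 fell by between 0.47 and 1.25 on the log2 scale. Dll4 stood at 71.8, 62.7, 52.1 and 56.6 CPM against 93.6, 74.7, 81.4 and 72.4 CPM, a log2 change of -0.34. Its change was 0.04 after cells were thinned to equal depth. There the rule was applied to the thinned counts, which gave 31, 111, 40 and 76 Gja5-negative cells, so the cells compared were not the same. Notch1 and Notch4 did not pass the test, at -0.11 (edgeR adjusted p 0.137) and -0.12 (edgeR adjusted p 0.197). Igfbp3 was 0.21 higher on the log2 scale (edgeR adjusted p 0.000227), yet 0.26 lower, at -0.26 (edgeR adjusted p 6.4e-05), against the 769 Gja5-positive cells that also had Cxcr4 and Unc5b UMIs.

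**Figure D1:**
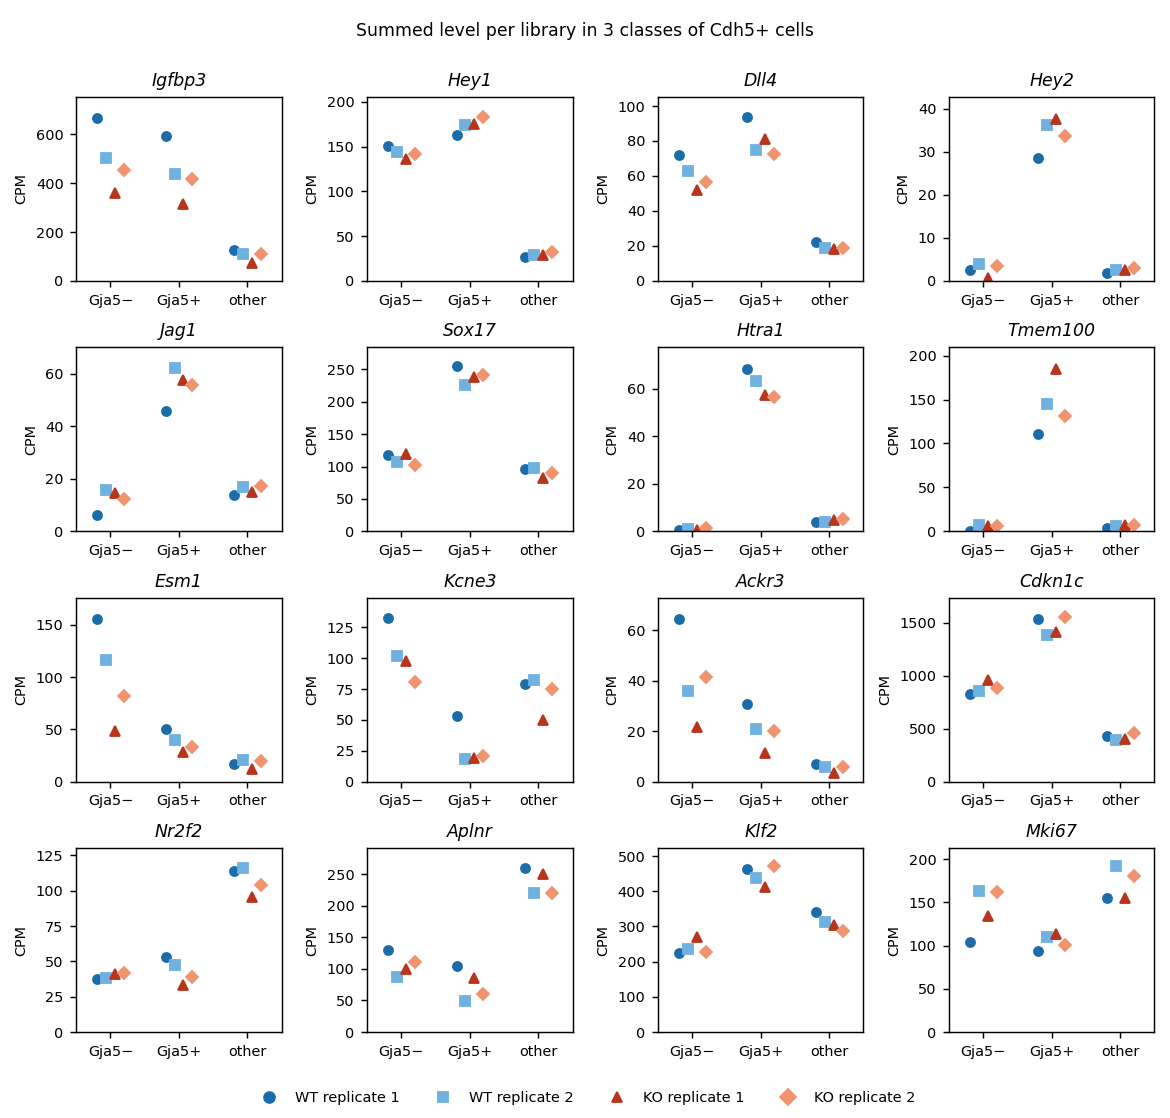
Level of 16 genes in CPM, 1 point per library, in Gja5-negative cells, Gja5-positive arterial cells and other Cdh5-positive cells. Htra1 lies between 0.488 and 1.40 CPM in the Gja5-negative cells and between 56.3 and 68.2 CPM in the Gja5-positive cells. Hey1 lies between 136 and 150 CPM in the Gja5-negative cells and between 163 and 183 CPM in the Gja5-positive cells.

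Genes of sprouting tip cells, which lead new vessel branches, were mostly higher in the Gja5-negative cells. Of 14 tested members of the 15 in the list, 9 were higher and 3 lower, with a median log2 change of 0.63. The Gja5-positive cells needed no Cxcr4 or Unc5b UMI. Among cells that all had both, Nid2 averaged 106, 107, 104 and 78.0 CPM with 0, 1, 2 to 3 and 4 or more Gja5 UMIs. Adm averaged 19.9, 20.3, 9.05 and 7.92 CPM there, and Kcne3, Ramp3 and Esm1 in these groups are given below. Igfbp3, counted as higher here, was lower against Gja5-positive cells with both, as given above. Kcne3, a potassium channel subunit, stood at 132, 102, 97.4 and 81.0 CPM against 53.0, 18.5, 19.2 and 20.8 CPM, a log2 change of 2.05 ± 0.25 (SE, edgeR adjusted p 0.0112). No library's Gja5-positive level reached any Gja5-negative level. The call was lost without KO1 (edgeR adjusted p 0.062) and without KO2 (edgeR adjusted p 0.074).

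Esm1, a secreted proteoglycan of tip cells that VEGF induces, stood at 156, 117, 48.1 and 82.2 CPM in the Gja5-negative cells and at 50.1, 40.0, 27.9 and 32.9 CPM in the Gja5-positive cells. The log2 change was 1.44 ± 0.10 (SE, edgeR adjusted p 2.41e-08), and against the Gja5-positive cells with Cxcr4 and Unc5b it was 0.86 and did not pass (edgeR adjusted p 0.13). Ramp3, a coreceptor of adrenomedullin, had a log2 change of 1.52 ± 0.13 (SE, edgeR adjusted p 8.65e-12), and Adm, which encodes adrenomedullin, was 1.29 higher. Apln, the ligand of the apelin receptor, was 0.66 higher. The collagen genes Col4a1 and Col4a2 and Plaur were the 3 members that were lower. Outside the list, Clec1b was 1.43, Gpr183 1.44, Traf3ip2 1.46 and the sulfotransferase gene Chst1 1.30 higher on the log2 scale.

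Cell division genes were higher and arrest genes lower in the Gja5-negative cells. All 24 S phase genes were tested and 19 were higher, with none lower and a median log2 change of 0.34. Of 22 genes of G2 and mitosis, 21 were higher and none lower, with a median of 0.47. Mki67, a proliferation marker, stood at 105, 164, 135 and 162 CPM against 93.4, 110, 113 and 101 CPM, a log2 change of 0.50 ± 0.07 (SE, edgeR adjusted p 3.82e-06). Rrm2, a subunit of ribonucleotide reductase, was 0.65 higher and the kinesin gene Cenpe 0.59 higher on the log2 scale. Of 11 arrest genes 6 were lower and none higher. Cdkn1c, the cyclin-dependent kinase inhibitor p57, stood at 831, 852, 957 and 879 CPM against 1537, 1384, 1412 and 1550 CPM, a log2 change of -0.71 ± 0.04 (SE, edgeR adjusted p 1.17e-12). The median depth per Gja5-positive cell was 22679, 13828.5, 14453.5 and 14863 UMIs, below that of the Gja5-negative cells in each library. Gja5-positive cells needed no Cxcr4 or Unc5b UMI, and the part of depth in these list counts was not tested.

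Genes of the shear response list, which relates to blood flow, were mostly lower than in the Gja5-positive cells. Of 9 tested shear response genes, 8 were lower and none higher, with a median log2 change of -0.66. Klf2, a flow-induced transcription factor, stood at 224, 236, 271 and 228 CPM against 464, 438, 411 and 472 CPM, a log2 change of -0.87 ± 0.06 (SE, edgeR adjusted p 1.82e-09). Klf4, its relative, was 0.99 lower at -0.99 and lost its call against the Gja5-positive cells with Cxcr4 and Unc5b (edgeR adjusted p 0.082). Nos3, the endothelial nitric oxide synthase, changed by -0.78. Against the other Cdh5-positive cells the list was mixed, with a median log2 change of 0.04. There 4 genes, Heg1, Thbd, Nos3 and S1pr1, were higher and 3, Klf2, Klf4 and Edn1, were lower.

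Venous genes did not move in 1 direction. Of 8 tested, 3 were higher, which were Flt4, Aplnr and Nrp2, and 3 were lower, which were Vwf, Dab2 and Ephb4, with a median log2 change of -0.01. Nr2f2, the main transcription factor of venous identity, stood at 37.6, 38.4, 41.4 and 42.1 CPM against 53.0, 47.6, 33.5 and 39.0 CPM. Its log2 change of -0.08 did not pass (edgeR adjusted p 0.558), and it was 0.31 (edgeR adjusted p 0.038) against the Gja5-positive cells with Cxcr4 and Unc5b. Vwf, the von Willebrand factor gene, showed the largest difference of the list, 30.1 ± 6.79 against 265 ± 16.7 CPM (mean ± SD, n = 4).

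From the list of CXCL12 and netrin pathway genes 4 outside the rule were tested, of which Ackr3 and Robo4 were higher and Cxcl12 and the netrin gene Ntn4 lower. Ackr3, the scavenger receptor of CXCL12, was 0.99 higher on the log2 scale in the Gja5-negative cells. Among cells that all had Cxcr4 and Unc5b UMIs, it averaged 41.0, 40.7, 30.3 and 24.4 CPM with 0, 1, 2 to 3 and 4 or more Gja5 UMIs. The part of requiring Cxcr4 and Unc5b in the Gja5-negative cells only was not tested. The ligand gene Cxcl12 stood at 0.977, 2.60, 3.36 and 8.13 CPM against 16.6, 27.9, 9.46 and 26.8 CPM, a log2 change of -2.44. Its level was therefore below that of the Gja5-positive cells in each library. In the BMP and TGF-beta list, 9 of 17 tested genes were lower and 2 higher, and the inhibitory gene Smad6 changed by -2.29. Of 13 basement membrane genes 5 were higher, among them Col15a1 with 1.04 and Nid2 with 0.65, and 6 were lower. Gja1, which encodes connexin 43, stood at 190 ± 18.1 CPM in the Gja5-negative cells and at 111 ± 10.1 CPM in the Gja5-positive cells, a log2 change of 0.81. Globin genes were lower too, Hba-a1 by a log2 change of -4.64, but the summed erythroid level of the Gja5-positive cells ranged from 58.1 CPM in KO2 to 5744 CPM in WT1, so this difference followed the libraries.

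**Figure D2:**
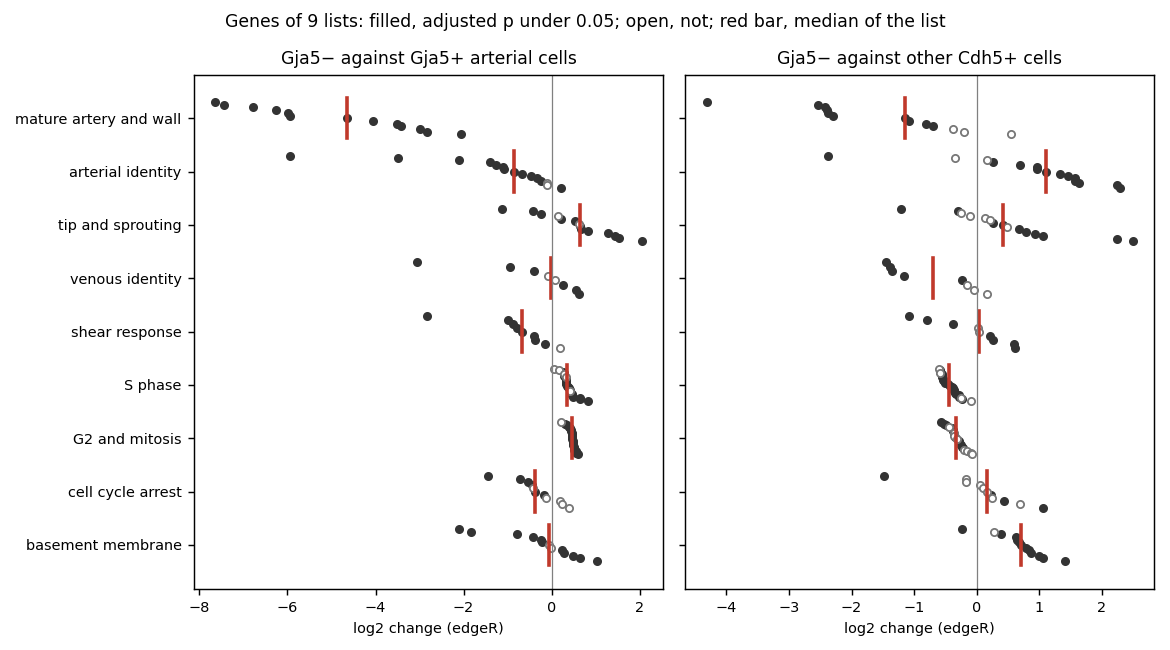
Log2 change of each tested gene of 9 lists, Gja5-negative against Gja5-positive arterial cells and against other Cdh5-positive cells, with filled points for an edgeR adjusted p under 0.05 and a red bar at the list median. Mature artery genes have a median of -4.65 against Gja5-positive cells, and S phase genes a median of 0.34 there and -0.45 against the other Cdh5-positive cells.

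The cells with UMIs of Cdh5, Gja4, Cxcr4 and Unc5b and none of Runx1 or Foxq1 were also divided by their number of Gja5 UMIs, which shows how the Gja5-negative cells stand beside cells with only 1 Gja5 UMI. The groups with 0, 1, 2 to 3 and 4 or more Gja5 UMIs held 65, 15, 13 and 48 cells in WT1, 236, 61, 98 and 185 in WT2, 75, 14, 28 and 70 in KO1, and 161, 44, 64 and 129 in KO2. Gja5 UMIs set these groups, so the levels carry no test, and the groups under 20 cells are thin.

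Cdkn1c stood at 880 CPM with no Gja5 UMI and at 1389, 1788 and 1829 CPM with 1, 2 to 3 and 4 or more (means of 4 libraries), with a gap between 0 and 1 in every library. Sox17 rose over the same groups from 112 to 182, 222 and 270 CPM. Vegfc followed with 66.7, 141, 190 and 237 CPM. For these genes the cells with a single Gja5 UMI lay between the ends.

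Kcne3 stood at 103 CPM with no Gja5 UMI and at 32.1, 21.0 and 27.6 CPM with 1, 2 to 3 and 4 or more, so its level was already low in the cells with 1 UMI. Ramp3 stood at 27.6, 12.9, 12.7 and 7.74 CPM and Esm1 at 101, 79.5, 48.8 and 55.2 CPM. Htra1 stood at 0.83, 16.1, 6.53 and 47.6 CPM. Its middle groups rested on few cells, since the 14 cells of KO1 with 1 UMI gave 47.4 CPM and the other libraries gave 0 to 9.36 CPM. Hey2 did the same, with 68.9 CPM in those 14 cells and 2.63 to 13.2 CPM in the other libraries.

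**Figure D3:**
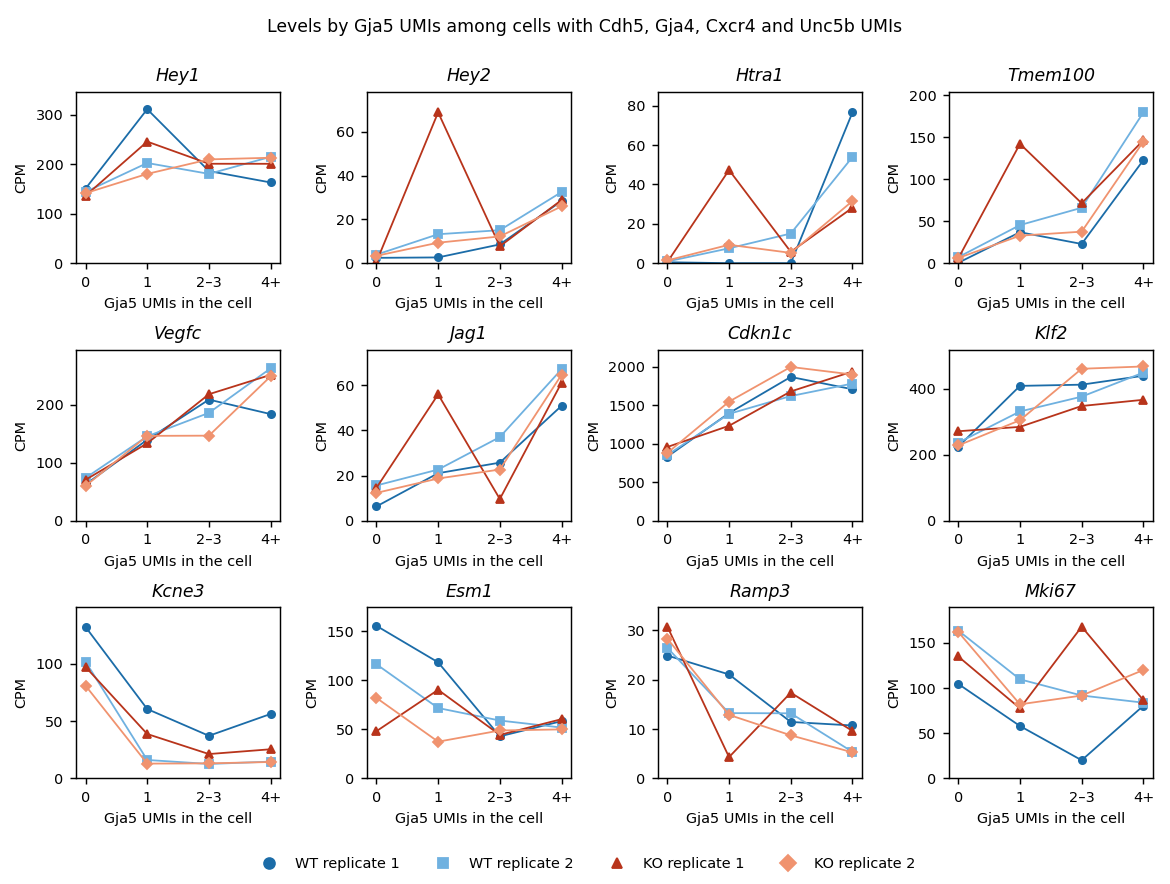
Level in CPM of 12 genes in cells with Cdh5, Gja4, Cxcr4 and Unc5b UMIs grouped by 0, 1, 2 to 3 or 4 and more Gja5 UMIs, 1 line per library. Cdkn1c lies at 880 CPM on average with no Gja5 UMI and at 1829 CPM with 4 or more, and Kcne3 at 103 and 27.6 CPM.

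The Gja5-negative cells were then compared with the 16100 other cells that had a Cdh5 UMI and belonged to neither arterial group. Of 13731 genes tested, 1846 (13.4%) were higher and 1911 (13.9%) lower (27.4% of all genes together, edgeR adjusted p under 0.05, library as a block), with a median log2 change of -0.03. Here the arterial identity list pointed the other way, with 12 of 15 tested genes higher, 1 lower and a median of 1.10. The other Cdh5-positive cells hold several endothelial types and also cells with Gja5, Runx1 or Foxq1 UMIs. Both comparisons use the same Gja5-negative cells.

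Hey1 stood at 27.2, 28.7, 28.6 and 32.6 CPM in the other Cdh5-positive cells, against 136 to 150 CPM in the Gja5-negative cells, a log2 change of 2.28 ± 0.06 (SE, edgeR adjusted p 4.67e-21). Igfbp3 stood there at 128, 110, 72.2 and 108 CPM against 360 to 668 CPM, a log2 change of 2.23 ± 0.05 (SE, edgeR adjusted p 2.22e-20). Neither gene's ranges overlapped. Dll4 was 1.64, Mecom 1.56, Vegfc 1.56, Efnb2 1.46, Notch4 1.10 and Notch1 0.96 higher on the log2 scale. Sox7, a SoxF factor, was 1.67 higher. Hey2 did not pass at 0.16 (edgeR adjusted p 0.778), and of the mature artery genes 10 of 13 tested were lower and none higher, with a median of -1.15. Tmem100 was at -0.21 without passing (edgeR adjusted p 0.569), and at 1.42 (edgeR adjusted p 0.0011) against other cells without Gja5, Runx1 and Foxq1 UMIs. The other Cdh5-positive cells could hold Gja5 UMIs, which the rule barred, so lower mature artery genes can follow from the selection itself.

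Ackr3 showed the largest rise among the named genes, at 64.5, 36.0, 21.8 and 41.5 CPM in the Gja5-negative cells against 7.07, 5.76, 3.30 and 5.75 CPM, a log2 change of 2.86 ± 0.13 (SE, edgeR adjusted p 4.16e-17). Esm1 stood at 16.6, 20.4, 12.2 and 19.4 CPM in the other Cdh5-positive cells, a log2 change of 2.49 ± 0.29 (SE, edgeR adjusted p 0.0127), and its call was lost without WT2 (edgeR adjusted p 0.099). Clec1a was 2.17 and Chst1 1.96 higher. Of 15 tip genes 8 were higher and 2 lower. Kcne3 did not pass at 0.48 (edgeR adjusted p 0.153), and Apln was lower at -1.21, so the tip genes did not move as a unit.

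Of 8 venous genes 5 were lower and none higher, with a median log2 change of -0.70. Nr2f2 stood at 114, 116, 95.3 and 104 CPM in the other Cdh5-positive cells against 37.6 to 42.1 CPM, a log2 change of -1.45 ± 0.07 (SE, edgeR adjusted p 5.9e-16). Aplnr, the apelin receptor gene, stood at 259, 219, 250 and 220 CPM against 129, 86.8, 99.6 and 110 CPM, a log2 change of -1.16 ± 0.06 (SE, edgeR adjusted p 2.48e-12). The Gja5-negative cells thus held less of both, though neither was at 0. Ephb4 did not pass at -0.16 (edgeR adjusted p 0.105).

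Cell division genes were lower here. Of 24 S phase genes 20 were lower and none higher, with a median of -0.45, and of 22 genes of G2 and mitosis 14 were lower and none higher, with a median of -0.34. Mki67 stood at 155, 192, 155 and 181 CPM in the other Cdh5-positive cells, a log2 change of -0.28. Cdkn1c stood at 435, 393, 405 and 458 CPM there, a log2 change of 1.05 in the Gja5-negative cells. For Mki67 and Cdkn1c the mean level of the Gja5-negative cells, 141 and 880 CPM, lay between those of the Gja5-positive cells, 105 and 1471 CPM, and those of the other Cdh5-positive cells, 171 and 423 CPM.

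Of 13 basement membrane genes 11 were higher and 1, Fn1, lower, with a median log2 change of 0.70. Col15a1 was 1.41, Nid2 1.05, Lama4 0.99 and Col4a1 0.79 higher on the log2 scale. Of 18 Notch pathway genes 8 were higher and 1 lower, with a median of 0.33, and of 19 guidance receptors and ligands 8 were higher and 2 lower, with a median of 0.38. Of 13 tested pan-endothelial genes 7 were higher and 2, Ramp2 and Tek, lower, with a median of 0.34. Lists of other endothelial types were lower, with 6 of 7 tested sinusoidal and lymphatic genes, among them Stab2 at -2.05 and Lyve1 at -2.02, and 8 of 12 tested hemogenic and progenitor genes, among them Myb at -2.40. Of 10 neural barrier genes 6 were lower and 1, the glucose transporter gene Slc2a1, higher. The rule barred Runx1 and Foxq1 UMIs, which the other Cdh5-positive cells could hold. Lower hemogenic and neural barrier lists can therefore follow from the selection itself, and its part was not tested. The genes with the largest falls were globins, led by Hbb-bh1 at -4.40, followed by Oit3 at -3.24, Gatm at -3.10, the platelet gene Pf4 at -2.98 and Gpr182 at -2.81. The Pf4 call was lost against other cells without Gja5, Runx1 and Foxq1 UMIs, at -1.09 (edgeR adjusted p 0.0805), and after thinning, at -0.63 (edgeR adjusted p 0.127). The erythroid list summed to 4694, 163, 4022 and 607 CPM in the other Cdh5-positive cells, and Hbb-bh1 stood there at 329, 12.3, 451 and 47.7 CPM, so the size of the globin difference followed the libraries.

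The share of Gja5-negative cells among Cdh5-positive cells was 3.20% in WT1 (exact 95% Clopper-Pearson interval 2.48 to 4.07), 3.33% in WT2 (2.92 to 3.77), 2.11% in KO1 (1.67 to 2.64) and 2.73% in KO2 (2.33 to 3.18). The WT mean was 3.27% ± 0.09 and the KO mean 2.42% ± 0.43 (SD, n = 2 each). Both KO shares lay below both WT shares by this count. The difference of -0.845 percentage points had p = 0.333 in an exact two-sided permutation test over the 4 libraries, which is the smallest p that 2 against 2 libraries can give. Among cells with Cdh5, Gja4, Cxcr4 and Unc5b the Gja5-negative share was 46.1%, 40.7%, 40.1% and 40.5%. With a stricter filter of 2000 genes and under 5% mitochondrial UMIs the difference was 0.109 points in the other direction. Intervals cover counting error only, and in each library the depth per cell sets how often a Gja5 or Cxcr4 UMI is missed.

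Between the genotypes, 0.354% of the tested genes passed the test in the Gja5-negative cells, and no arterial identity gene was among them. For 24 of the 29 genes higher in KO, more than 50% of the KO UMIs lay in a few cells with UMIs of other lineages. Of 9897 genes tested, 29 (0.293%) were higher and 6 (0.0606%) lower in KO, together 0.354% of all genes (edgeR adjusted p under 0.05), and 511 (5.16%) had an unadjusted p under 0.05. In 13 tested arterial identity genes none was called by edgeR or DESeq2 and 2, Sema3g and Igfbp3, had an unadjusted p under 0.05 in edgeR, with a median log2 change of -0.14 beside 0.01 over all genes. Without the cells of other lineages described below, that median was -0.04. Hey1 stood at 150, 144, 136 and 141 CPM, a log2 change of -0.10, and Igfbp3 at 668, 504, 360 and 456 CPM, a log2 change of -0.53 (edgeR adjusted p 0.453). Sox17 was at -0.05, Dll4 at -0.31 and Nr2f2 at 0.11. All 24 S phase genes had a point estimate above 0, with a median of 0.37, and without the cells of other lineages 20 of 24 did, with a median of 0.20. None of them was called by edgeR or DESeq2, and 11 had an unadjusted p under 0.05 in edgeR. None of 17 tested genes described as miR-223 targets was called by either tool, with a median of -0.03 and 2 genes, E2f1 and Nfia, at an unadjusted p under 0.05 in edgeR. At a share of 0.354% of all genes, lists of 13 or 17 genes can lack a call without differing from other genes.

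Genes with a match to the miR-223-3p seed were looked at in the same fit. The motif searched was AACTGAC, the reverse complement of the seed, on the transcript strand of annotated 3' ends. The 1162 tested genes with a match had a median log2 change of 0.01, and the 8561 without one also had 0.01. Of those with a match 1, Peg3, was called, and of those without a match 34 were. Without the cells of other lineages none of 1124 genes with a match and 5 of 8319 without one were called by edgeR. A match is a description of letters and not a site shown to be bound.

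The genes called higher in KO included Rhox9, Rhox6, Dppa5a, Utf1, Dnd1 and Pou5f1, which are known from germ cells and pluripotent cells, and Prrx1, Prrx2 and Col1a1, known from mesenchyme. Dppa5a had 1, 6, 93 and 409 UMIs. Of those, 92 and 403 in the KO libraries lay in cells with at least 10 UMIs summed over the germ cell, mesenchymal, mural or epithelial list. Rhox9 had 3, 1, 36 and 125 UMIs, with 35 and 124 of the KO UMIs in those cells. The growth factor gene Ptn had 11, 11, 242 and 243 UMIs, with 9, 5, 233 and 237 in those cells.

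For the 24 genes the share of KO UMIs in such cells was 56.3% to 100%. The 5 genes below 50% were Wdfy1 with 6.11%, Lgals1 with 25.4%, Dnph1 with 31.6%, Peg3 with 35.2% and Phgdh with 37.2%. There were 13 such cells, 2, 1, 2 and 8 in the 4 libraries, of which 1, 0, 1 and 6 were called doublets. Their median depth was 61069, 25192, 62714 and 52487.5 UMIs, against 26836, 17156.5, 21252 and 17932 UMIs over all Gja5-negative cells. They were removed in an alternative chosen after seeing the data. Of the called genes, Dnd1, Pou5f1, Prrx1 and Col1a1 are themselves in the lists that picked the cells, so their loss follows in part from the removal. Without the 13 cells 9600 genes were tested and 5 were called (0.0521%), 1 higher (0.0104%) and 4 lower (0.0417%), and 213 (2.22%) had an unadjusted p under 0.05.

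**Figure D4:**
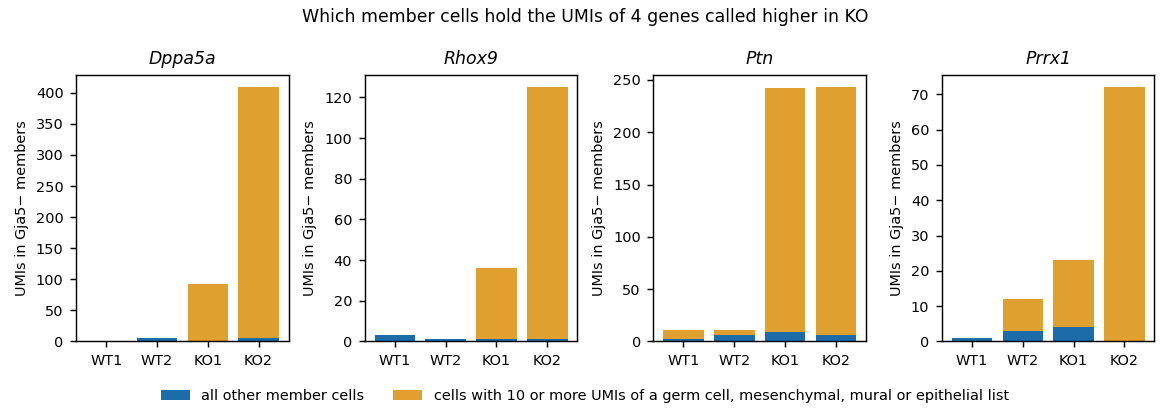
UMIs of Dppa5a, Rhox9, Ptn and Prrx1 in the Gja5-negative cells of each library, stacked by whether they lie in the 13 cells with UMIs of other lineages or elsewhere. For Dppa5a, 403 of the 409 UMIs of KO2 lie in such cells.

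The 5 genes called with and without the 13 cells were Wdfy1, Mxra7, Rnaset2b, Rps2 and Mettl23. Wdfy1, which encodes an endosomal adaptor protein, stood at 15.1, 10.6, 54.9 and 59.7 CPM. Its log2 change was 2.20 ± 0.24 (SE, edgeR adjusted p 1.85e-05), and 2.27 without the 13 cells. Mxra7, a matrix remodelling associated gene, stood at 67.9, 62.3, 15.7 and 22.7 CPM, a log2 change of -1.73 ± 0.23 (SE, edgeR adjusted p 0.000162), and it lost the call after thinning (edgeR adjusted p 0.088). For both genes the groups did not overlap, which the rule for naming genes between genotypes required.

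Mettl23, a methyltransferase gene, stood at 65.0, 63.4, 29.7 and 32.0 CPM, a log2 change of -1.07 (edgeR adjusted p 0.0129). Rps2, a ribosomal protein gene, stood at 5533, 5800, 3586 and 2947 CPM, a log2 change of -0.82 (edgeR adjusted p 0.00841). Rps2 has many near-identical copies in the genome, so how reads were divided among them is uncertain. Rnaset2b had 22, 32, 2 and 1 UMIs (edgeR adjusted p 0.00443), and it too has a near-identical copy, Rnaset2a, with which it can share reads. Rps2 and Mettl23 lost their calls without KO2 or after thinning, and Rnaset2b without KO2 (edgeR adjusted p 0.11).

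Esm1 was the tip gene that was called, at 156, 117, 48.1 and 82.2 CPM, a log2 change of -1.03 ± 0.22 (SE, edgeR adjusted p 0.046). Without the 13 cells it was -0.90 and did not pass (edgeR adjusted p 0.751). Of the 14 tested tip genes 12 had a point estimate below 0, with a median of -0.33. Among those that did not pass, Kcne3 was at -0.41, Apln at -0.83 and Ramp3 at 0.16. The last of the 6 lower genes, 1110059E24Rik, was at -0.91 (edgeR adjusted p 0.0308).

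**Figure D5:**
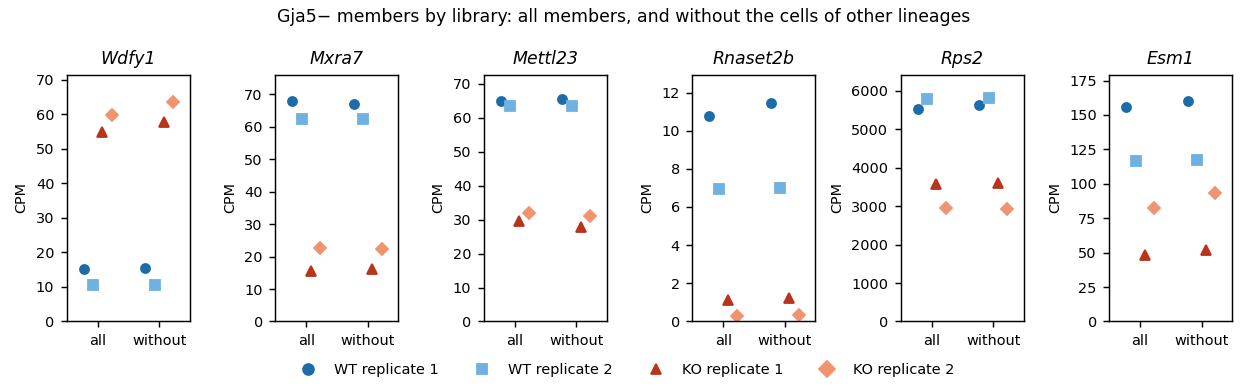
Level in CPM of 6 genes in the Gja5-negative cells of each library, over all cells and without the 13 cells with UMIs of other lineages. Wdfy1 lies at 15.1, 10.6, 54.9 and 59.7 CPM in WT1, WT2, KO1 and KO2, and Mxra7 at 67.9, 62.3, 15.7 and 22.7 CPM.

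In the Gja5-positive arterial cells, 4 of 11720 tested genes were called between KO and WT (0.0341%, edgeR adjusted p under 0.05), 2 higher and 2 lower (0.0171% each), and 3 of them, Wdfy1, Mxra7 and Rnaset2b, were also called in the Gja5-negative cells. Whether the genotype difference itself differed between the 2 arterial groups was tested by an interaction term. It was called for 53 of 11198 genes (0.473%), 44 higher (0.393%) and 9 lower (0.0804%) in the Gja5-negative cells. Without the cells of other lineages it was called for 1 gene, the globin gene Hba-a2 (0.00909%). Those cells were left out of both groups, which removed 9, 27, 27 and 30 Gja5-positive cells as well. None of the 15 tested arterial identity genes was called in the interaction by edgeR or DESeq2, and 2, Nrp1 and Sema3g, had an unadjusted p under 0.05 in edgeR. At a share of 0.473% of all genes, a list of this size can lack a call without differing from other genes. Cxcl12 was called at 1.81 (edgeR adjusted p 0.039), with 2, 12, 6 and 29 UMIs in the Gja5-negative cells, and without the cells of other lineages it was 1.79 and did not pass (edgeR adjusted p 1).

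Some Gja5-negative cells had UMIs of both Hey1 and Nr2f2, but Nr2f2 and Aplnr were seen less often with Hey1 than without it. Of 472 thinned cells pooled over the libraries, 63 had UMIs of both Hey1 and Nr2f2, which is 18.6% of the cells with Hey1, and 31.3% of the cells without Hey1 had Nr2f2. Aplnr was seen in 41.4% of the cells with Hey1 and 54.5% of those without. Dll4 was seen in 47.6% and 38.8%. These shares are a description of sparse counts, and cells of 1 library are not replicates. Called doublets were kept in them, and free RNA was not measured.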

How the data were processed

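Single-cell RNA was measured in 4 libraries, 2 WT and 2 KO. What the authors deposited are UMI counts, not normalized, that Cell Ranger 3.1.0 wrote for each gene and barcode, per the file headers. Seurat 4 is named in the submitters' processing notes. The sources used here do not state the aligner, the genome build or the annotation. The filter on cells was a minimum of 1000 genes and a mitochondrial share under 10%. To find doublets, 2 were simulated for each cell with a mitochondrial share under 20%, and 0.8% of cells were called for every 1000 barcodes. Called doublets stayed in the counts and were removed as an alternative.

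For each class the UMI counts of a library were added up and tested with edgeR 4.0.16 in R 4.3.3 (filterByExpr, TMM scaling, robust quasi-likelihood fit, Benjamini-Hochberg adjustment over all genes tested, threshold 0.05). The 7 genes of the rule were left out. The library was a block in comparisons between classes. The SE is the absolute log2 change divided by the square root of F, and log2 changes are edgeR's, which a prior count shrinks. Levels are CPM of the summed counts, and per-library log2 ratios add 0.5 CPM. DESeq2 1.42.0, RLE scaling, no low-count filter, thinning to 10000 UMIs, a stricter cell filter, a Pecam1 requirement, narrower comparison groups, the replicate number as a block and each library left out were alternatives. For the thinning alternative the rule and the comparison groups were set anew from the thinned counts. Cells of other lineages, with at least 10 UMIs over any of 4 lists, were removed from every class as an alternative. It was chosen after seeing the data, once the number of such cells at several limits had been seen. Python 3.11.15 with scipy 1.17.1 and numpy 2.4.6 was used for shares and permutation tests. Depth limits precision, and intervals are exact binomial and cover counting error only. The motif was searched in GENCODE 3' ends, and the microRNA sequence was taken from RefSeq.

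The Gja5-negative cells, the 35 gene lists and the tests were chosen with earlier results of these data known. Genes named between classes were the 12 higher and 12 lower with the largest change, the same direction in 4 libraries and at least 20 CPM in the higher class. Genes named between genotypes were up to 10 higher and 10 lower ranked by adjusted p, with each KO library beyond each WT library. A fixed set and members of the lists were named besides. On simulated counts over 9709 genes, 72% of 2-fold and 97% of 4-fold changes were recovered between genotypes in the Gja5-negative cells. Changes were planted only in genes with an expected mean above 20 UMIs per library, so the shares do not cover rarer genes.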

Additional observations from a re-analysis of the deposited data

Results flagged for a closer look

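For 84 gene and comparison pairs the log2 ratio of the Gja5-negative cells to the comparison cells was taken in each of the 4 libraries, and 5 pairs had 1 library far from the others. Chance flags about 1 in 20 such groups. Against the Gja5-positive cells, Ramp3 had a log2 ratio of 1.058 in WT1 and 1.50 to 1.56 in the other libraries. Pi16 had -3.309 in WT1 and -5.11 to -4.88 elsewhere. Cavin2 had -6.153 in KO1 and -3.93 to -3.53 elsewhere. Hey2 had -5.171 in KO1, where it had a single UMI in the Gja5-negative cells, and -3.30 to -3.05 elsewhere. Against the other Cdh5-positive cells Hey2 had -1.544 in KO1 and 0.17 to 0.50 elsewhere.

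The KO against WT difference differed between the Gja5-negative and the Gja5-positive cells, by edgeR's interaction test, for 20 named genes. It was higher in the Gja5-negative cells, on the log2 scale, by 7.135 for Dppa5a, 5.571 for Rhox9, 5.109 for Rhox6, 6.097 for Phlda2, 3.856 for Utf1 and 3.564 for Prrx1, none of which was tested once the cells of other lineages were removed. It was 4.893 for Ptn, 2.422 for Rhox5, 0.6591 for Peg3 and 1.806 for Cxcl12, which became 0.84, -2.62, 0.35 and 1.79 without those cells, each with an adjusted p of 1. Hba-a2 was at 3.947 with all cells and at 3.98 without those cells (edgeR adjusted p 0.00722). The erythroid list summed to between 58.1 and 5744 CPM in the Gja5-positive cells of the 4 libraries, and its part in this value was not tested.

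Genes with a lower KO against WT difference in the Gja5-negative cells were Ly6h at -0.5906, Cdc42ep2 at -0.7598, Ccdc85b at -0.5664, D030007L05Rik at -0.8001, Sat1 at -0.3419, Gnas at -0.239, Maged2 at -0.2819, Cavin3 at -0.2765 and Socs3 at -1.15. Without the cells of other lineages they were -0.50, -0.62, -0.41, -0.68, -0.23, -0.15, -0.16, -0.11 and -1.19 in the same order, each with an adjusted p of 1.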

How the results depend on the processing

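The 35 genes called between genotypes in the Gja5-negative cells were 23 with DESeq2, 117 with no filter on low counts, 13 without called doublets, 1 after thinning, 23 with the stricter cell filter, 5 without the cells of other lineages, and 82, 111, 59 and 53 without WT1, WT2, KO1 and KO2, where the lone library of a genotype is assumed to vary like the other pair. With the replicate block there were 71. Replicate numbers are only numbers in the labels, and deviations from the group means correlated at 0.169 between WT1 and KO1 and at -0.169 between WT1 and KO2. The 3277 genes against Gja5-positive cells were 1676 with DESeq2, 1594 after thinning, 382 with the stricter filter, 1317 without the library as a block and 2259 to 3050 with 1 library left out. The 3757 genes against other Cdh5-positive cells were 2026 with the stricter filter, 1696 without the library as a block and 2476 to 3682 with 1 library left out, the lowest without WT2. The 53 interaction genes were 5 with DESeq2, 33 without doublets, 2 after thinning, 28 with the stricter filter, 10 against Gja5-positive cells with Cxcr4 and Unc5b, 1 without the cells of other lineages and 54 to 97 with 1 library left out, the highest without KO1. The difference in share of -0.845 points was -0.39 after thinning, -3.11 among cells with all 4 genes, 0.109 with the stricter filter, where WT1 had 7 cells, and -1.15 to -0.538 with 1 library left out.

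Signs of named genes reversed for Igfbp3 (-0.26) and Nr2f2 (0.31) against Gja5-positive cells with Cxcr4 and Unc5b, for Dll4 (0.041) after thinning, and against other cells for Tmem100 (1.42, without Gja5, Runx1 and Foxq1) and Kcne3 (-0.41, thinned). In the interaction they reversed without doublets for Rhox9 (-0.80), Rhox6 (-1.71) and Rhox5 (-3.51), for Rhox5 without cells of other lineages (-2.62) and after thinning (-1.57), for Sat1 (0.13) and Socs3 (0.32) after thinning, and for Gnas (0.064) with the stricter filter. Fewer UMIs or cells entered the thinned and stricter fits, and otherwise the cause was not tested. Of the remaining values of single genes 1836 stayed on their side of the threshold, 226 lost it and 16 gained it. With 2 libraries per genotype, depth of the Gja5-negative cells limits what can be called.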
